A study of Oryza sativa with 12 samples.

Results

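Rice seedlings that carried the *OsWOX4* silencing construct were compared after 12 h with 10 μM DEX and after 12 h in mock solution, on 3 arrays each, 6 of the 12 arrays of the series. All arrays came from 1 construct, *pACT1-GVG>OsWOX4:RNAi*. In it the rice *ACT1* promoter drives GVG, a transcription factor that DEX activates and that then switches on the RNAi transcript. The seedlings were 5 days old, and RNA was taken from the shoot apex with its leaf primordia. The arrays of the other groups, 3 of DEX and 3 of mock at 3 h, enter the comparison only through the estimate of the spread. Wild-type plants given DEX were not analysed here, and what DEX or GVG did by itself cannot be told apart from silencing. Every row of the array table was compared, 54922 in all, and the description is of the 15829 rows paired with 1 gene, which belong to 15140 genes. Of these genes 1733 have a name that could be printed. Values are signals on the linear scale unless a log2 fold change (DEX over mock) is named. "Rose" and "fell" are written only of rows with an adjusted p under 0.05 in limma.

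The shoot apex holds the shoot apical meristem (SAM), a group of dividing cells that renews itself while leaf primordia form on its flanks. WOX proteins are homeobox transcription factors, and members of the family act in the maintenance of meristems and in leaf development. In the youngest primordia most cells still divide. Chloroplasts, veins and hardened walls form as the leaf matures. Jasmonate, a lipid-derived hormone made from fatty acids by lipoxygenases and allene oxide synthases, is best known for defense and wound responses and for restraining growth.

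The response was broad and ran both ways. Of the rows with 1 gene, 3565 rose and 5002 fell, 22.5% and 31.6% of those tested. By the limits of the study (2-fold or more, with a p under 0.01), 1482 were higher and 1678 lower, 9.36% and 10.6%. The p was taken here as unadjusted, because the study names no adjustment. Over all 54922 rows, 14.9% rose and 28.0% fell, and 5.17% were higher and 9.76% lower by the limits of the study. With 1 row per gene, 3445 genes rose and 4904 fell, which is 22.8% and 32.4%. Counts for gene groups below are of genes and are to be read against these last shares. The median log2 fold change over all 15140 genes was -0.06. Arrays of both groups were fully apart in 63.2% of the rows with 1 gene and for 64.0% of the genes. Of the rows that rose, 3188 (89.4%) had their 3 DEX arrays above all 9 other arrays of the series, and of those that fell, 4613 (92.2%) had them below. Such rows numbered 3490 above and 4926 below among all rows with 1 gene. Around the fold limit, the 5 genes just inside had log2 changes of 1.001 in size and the 5 just outside 0.999.

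As deposited, falls were more numerous and rises were larger. Of the genes that rose, 541 did so by at least 2 on the log2 scale, against 176 of those that fell; at a limit of 3 the counts were 217 and 28. The excess of large rises held under each scaling tried, with 574 to 634 rises and 109 to 145 falls past the limit of 2. The median size was 0.84 for rises and 0.79 for falls.

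The DEX arrays had a lower distribution of signals, and the direction of the majority depended on how this was treated. Over all rows, every DEX array was below every mock array at the median (5.64 to 5.66 against 5.72 to 5.74, log2 signal) and at the upper quartile (7.15 to 7.24 against 7.38 to 7.40). At the upper quartile the difference (DEX minus mock) was -0.245 on the rows with no gene or several and -0.066 on the rows with 1 gene. On the rows with 1 gene the upper quartiles overlapped, the 90th percentile differed by 0.004 and the 99th percentile was 0.12 higher in the DEX arrays. As deposited, 58.4% of the calls on these rows were falls. Centring the arrays on the median, which moves every log2 fold change up by 0.08, gave 51.8%, quantile normalization gave 49.0%, and centring on the upper quartile, which moves every one up by 0.19, gave 42.5%. By the fold limit the shares of lower rows were 53.1% as deposited and 47.1%, 43.8% and 38.7% under the same 3 scalings. Replicate arrays correlated at r = 0.982 to 0.986 in the DEX group and 0.989 to 0.990 in the mock group, and DEX with mock arrays at 0.911 to 0.927 (across rows, which are not independent).

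**Figure D1:**
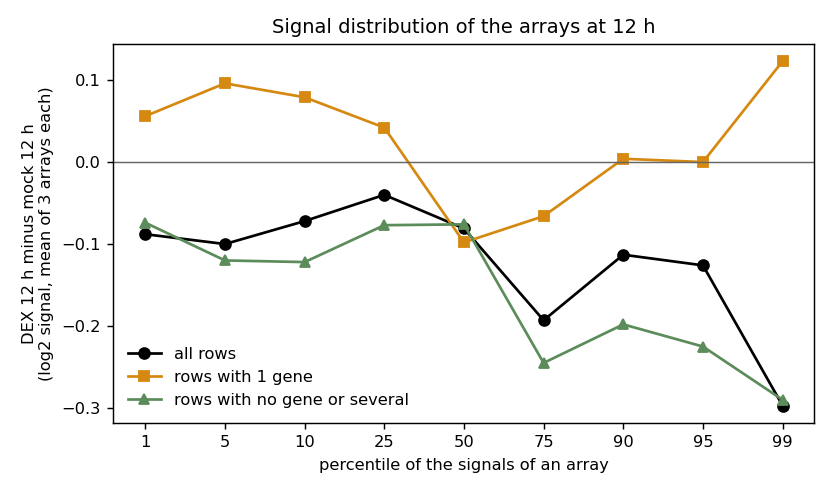
Difference between the DEX and mock arrays of 12 h (mean of 3 arrays each, log2 signal) at 9 percentiles of an array's signals, for all rows, rows with 1 gene and the remaining rows. The rows with no gene or several lie below 0 at every percentile, while the rows with 1 gene lie above 0 at the low percentiles, at -0.098 at the median and at 0.123 at the 99th.

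The share of rises and falls differed with signal level. Rows were sorted by their mean signal on the mock arrays of 3 h, which are not part of the comparison and not a sample from before treatment. Rows under a log2 signal of 4 lie near the lower end of the array and could hardly fall, which fixes the low end of the series in part, and the sort sets different probes side by side. Among rows with 1 gene and a mean log2 signal under 4, 19.8% rose and 2.57% fell. Between 6 and 7, 23.8% rose and 40.4% fell, and between 9 and 10 the shares were 16.2% and 53.8%. After quantile normalization the shares between 9 and 10 were 21.7% and 47.0%, and those under 4 were 22.5% and 1.57%, so the gradient was present under both.

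**Figure D2:**
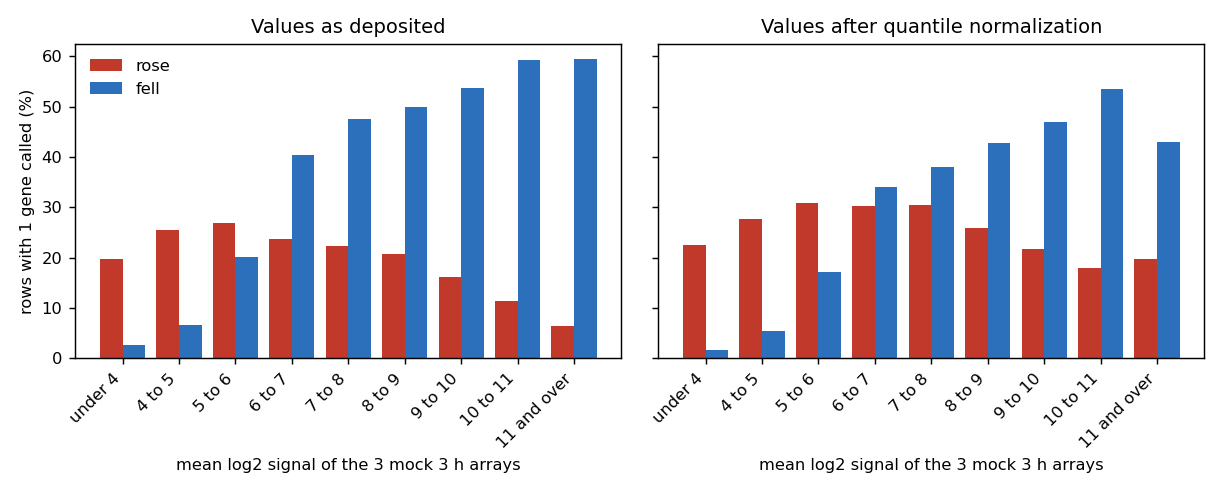
Share of rows with 1 gene that rose (red) or fell (blue) at an adjusted p under 0.05, by the mean log2 signal of the 3 mock arrays of 3 h, as deposited and after quantile normalization. Rises are the larger share up to a signal of 6 and falls from 6 upward, under both.

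Among genes with a printable name, the largest rises included the following. *salT*, encoding a mannose-binding lectin, had signals of 1485, 1702 and 1763 in the DEX arrays, against 28.5, 27.8 and 25.8 in the mock arrays. *Os4CL3*, a 4-coumarate:CoA ligase at the entry to phenylpropanoid products, had 3439, 3521 and 2917 in the DEX arrays, against 115, 104 and 80.3 in the mock arrays. Both were dim in mock arrays and bright in DEX arrays, with log2 fold changes of 5.91 for *salT* and 5.05 for *Os4CL3* (standard errors 0.16 and 0.23). *AOX1a*, the alternative oxidase of the mitochondrial electron chain, had 1595, 1159 and 1445 in the DEX arrays, against 44.6, 40.0 and 41.8 in the mock arrays. *HSFA4D*, a heat shock factor, had 1559, 1528 and 1659 in the DEX arrays, against 39.0, 42.0 and 77.3 in the mock arrays. In none of these genes did an array of one group come near the other group, and arrays that do not overlap were a condition for choosing them. *GRXS5*, a glutaredoxin, had the least spread among DEX arrays, relative to their mean, of the 15 largest named rises, with 991, 976 and 1026 in the DEX arrays, against 53.3, 57.8 and 57.0 in the mock arrays. *PHT3*, which joins hydroxycinnamic acids to putrescine, had the most relative to the mean, with 159, 335 and 143 in the DEX arrays, against 8.35, 12.2 and 11.6 in the mock arrays. Its arrays were fully apart too, by the same condition (log2 fold change 4.22, standard error 0.27, adjusted p = 3.05e-07).

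**Figure D3:**
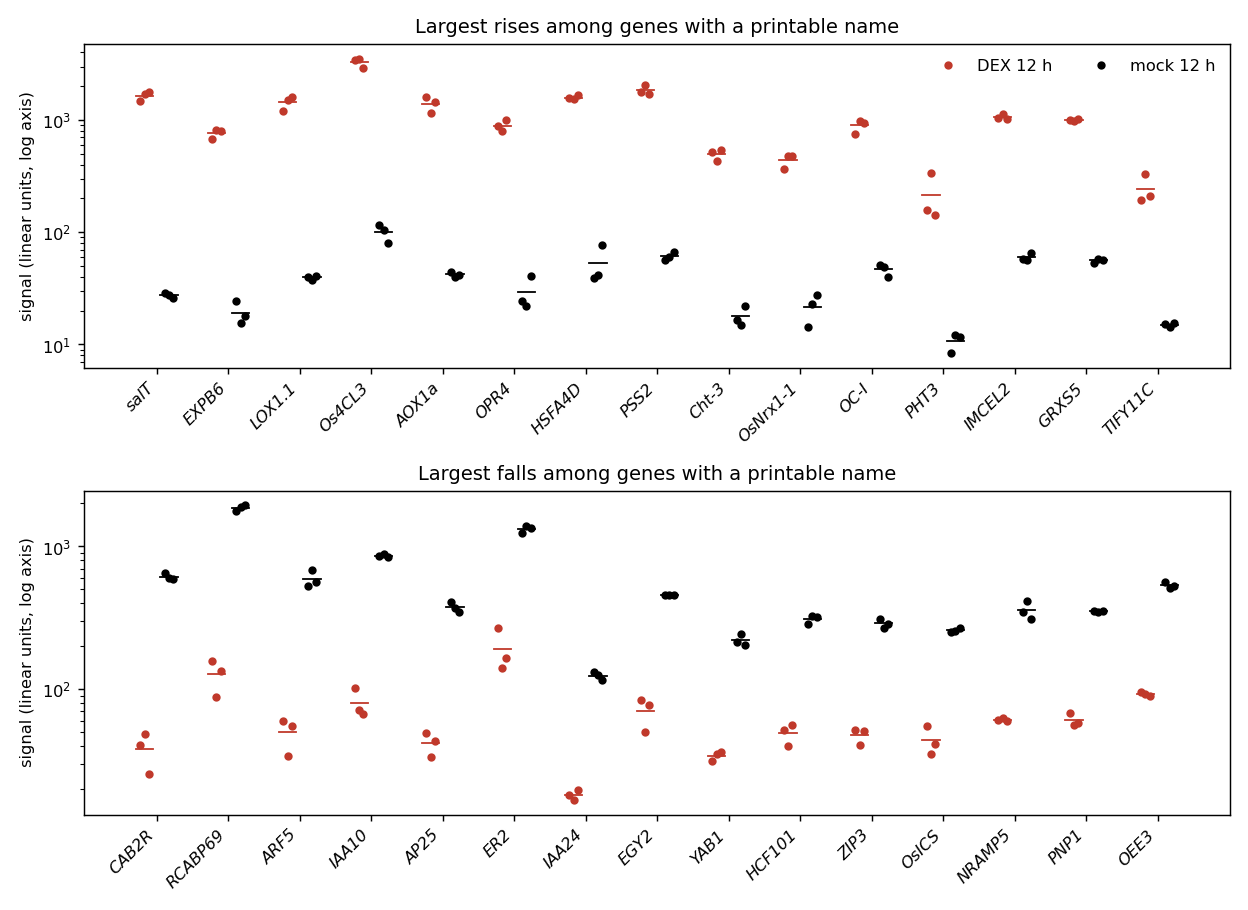
Signals of the 15 largest rises (top) and the 15 largest falls (bottom) among genes with a printable name; red points are the 3 DEX arrays and black points the 3 mock arrays of 12 h, lines are means, and the axis is logarithmic. DEX and mock arrays are apart in every gene, which was a condition for choosing them.

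Among genes with a printable name, the leading rise in absolute signal was *PGIP-1*, an inhibitor of the polygalacturonases with which fungi digest pectin. It had 5888, 6592 and 5930 in the DEX arrays, against 1026, 1096 and 1011 in the mock arrays, a difference in means of 5092. The next were *Os4CL3*, then *GST-II* (3578, 3638 and 3603 in the DEX arrays, against 830, 839 and 852 in the mock arrays), a glutathione S-transferase, and *ASA2*, a subunit of the anthranilate synthase that opens tryptophan synthesis (3010, 3038 and 2862 against 230, 267 and 308). The fifth was *DOF4*, a zinc finger transcription factor, at 2935, 3140 and 3126 in the DEX arrays, against 525, 573 and 541 in the mock arrays. Of these 5 genes, *Os4CL3* was the dimmest in mock arrays, and *GST-II* had the smallest fold change, 4.29.

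Most genes of the jasmonate list rose. Of 16 genes of jasmonate synthesis and signaling, 13 rose and 2 fell, and the median over the list was 1.48 on the log2 scale. The lipoxygenase gene *LOX1.1* had 1198, 1518 and 1602 in the DEX arrays, against 40.3, 37.8 and 40.5 in the mock arrays, while *LOX2* differed less (418, 393 and 376 against 268, 274 and 255). Both lipoxygenase genes were apart between the groups, *LOX1.1* by 5.18 and *LOX2* by 0.57 on the log2 scale (adjusted p = 9.35e-10 and 0.00148). Of the allene oxide synthases, which commit the precursor to jasmonate, *AOS2* had 145, 200 and 114 in the DEX arrays, against 18.1, 24.1 and 19.7 in the mock arrays, and *AOS1* had 207, 251 and 205 against 73.9, 65.5 and 69.3. *AOC3*, of the allene oxide cyclases that act next, had 532, 679 and 657 in the DEX arrays, against 228, 258 and 248 in the mock arrays. Every one of these genes was higher after DEX. Whether either lipoxygenase serves jasmonate synthesis was not tested. *OsOPR7*, the 12-oxophytodienoate reductase known to act in jasmonate synthesis, rose by 1.16 (standard error 0.10, adjusted p = 2.99e-06), and *OPR4* of the same family rose by 4.99 (standard error 0.21, adjusted p = 1.70e-08). *COI2*, an F-box protein of the jasmonate receptor, rose by 2.76 (standard error 0.13, adjusted p = 3.41e-08). A gene of the last step ran the other way. *GH3.5*, also named *JAR1*, joins jasmonate to isoleucine to give the active hormone, and it had 245, 215 and 306 in the DEX arrays, against 606, 639 and 538 in the mock arrays (log2 fold change -1.23, standard error 0.14, adjusted p = 3.10e-05). *OsOPR8* fell by 0.82.

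The TIFY proteins include the JAZ repressors, which hold back jasmonate responses and are themselves induced by the hormone, and the ZIM proteins with a GATA finger. Of 8 genes 4 rose and 2 fell. The JAZ genes *TIFY11C*, *TIFY10C* and *TIFY10A* rose by 3.99, 3.68 and 2.07 on the log2 scale, and *TIFY6B* by 0.91. *TIFY10A* reached 1252, 1607 and 1525 in the DEX arrays, against 365, 353 and 324 in the mock arrays. The 2 that fell, *TIFY2A* and *TIFY2B*, were ZIM genes, at -0.40 and -0.65 on the log2 scale (adjusted p = 0.0241 and 0.00137). With centring on the upper quartile *TIFY2A* no longer passed (adjusted p = 0.169).

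Most of the listed *WRKY*, *NAC* and heat shock factor genes rose as well. List members were taken by symbol or synonym, and genes with a printable name rose more often than the others (29.1% against 21.9%). The *WRKY* and *NAC* counts cover the genes so named and not whole families. Of 5 *WRKY* genes 4 rose. *WRKY62* had 286, 310 and 341 in the DEX arrays, against 21.9, 20.6 and 22.6 in the mock arrays, and *WRKY9* did not pass (246, 248 and 277 against 230, 241 and 235). All 7 *NAC* genes rose, by 0.66 to 2.96 on the log2 scale, led by *SNAC2*, a factor known from drought and cold tolerance (366, 432 and 424 in the DEX arrays, against 46.8, 58.2 and 52.5 in the mock arrays). Heat shock factors were higher for 9 of 14 genes and lower for 2, with a median of 0.88 on the log2 scale. *HSFA2B* was the larger of the falls, at 23.3, 23.02 and 14.5 in the DEX arrays, against 91.6, 87.5 and 80.4 in the mock arrays. For the chaperones that such factors control in heat the count depended on scaling. Of 33 genes of heat shock proteins and ER chaperones 8 rose and 7 fell, with log2 fold changes of those called between -1.11 and 0.76. With centring on the upper quartile 13 rose and 5 fell, and after quantile normalization 12 and 5.

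The NPR1 family, whose founding member is a receptor and co-activator in salicylic acid signaling, split. *NPR4*, *NH3*, *NH1* and *NH2* rose by 3.13, 2.51, 1.71 and 1.39 on the log2 scale. *NH4* and *NH5* fell, with 44.0, 45.4 and 42.5 in the DEX arrays and 131, 113 and 95.5 in the mock arrays for *NH4*, and 34.7, 44.0 and 56.8 in the DEX arrays and 114, 110 and 109 in the mock arrays for *NH5*. *OsICS*, isochorismate synthase, which makes a precursor of salicylic acid and of phylloquinone, fell as well (55.7, 35.4 and 41.1 in the DEX arrays, against 251, 256 and 268 in the mock arrays). Its log2 fold change was -2.58 (standard error 0.15, adjusted p = 1.49e-07).

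Of 8 chitinase genes 7 rose and none fell, where 22.8% of all genes rose, and *Cht11* did not pass (0.35, adjusted p = 0.488). *Cht-3* had 524, 431 and 545 in the DEX arrays, against 16.4, 15.02 and 22.2 in the mock arrays. The cystatin *OC-I*, an inhibitor of cysteine proteases, had 757, 986 and 951 in the DEX arrays, against 50.9, 49.4 and 39.6 in the mock arrays, and of 6 protease inhibitor genes 4 rose. *OC-VI*, the 1 that fell, stood at -0.45 on the log2 scale (adjusted p = 0.0373), and this call was lost under 10 of the alternatives tried. Of 14 genes for diterpenoids, the class of most rice phytoalexins, 4 rose, none fell and 10 did not pass. *OsKOS1* and *CPS4* led them with 2.60 and 1.72. *CPS1*, the related synthase that serves gibberellin, fell by 1.54 on the log2 scale (40.2, 48.1 and 49.3 in the DEX arrays, against 153, 139.6 and 111 in the mock arrays). Of 14 phenylpropanoid and amide genes 5 rose, 2 fell and 7 did not pass. The amide-forming transferases *TBT2* and *THT1* rose by 2.32 and 1.34, while *PAL* itself had 0.03 (adjusted p = 0.886). The ABC transporter genes *ABCG37* and *ABCG36* rose by 3.78 and 3.69, and *ABCG50* and *ABCG53* fell (-1.01 and -0.89).

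Among signaling kinases and phosphatases, rises outnumbered falls in 3 of the 4 lists as deposited. Of 29 genes for calcium-dependent kinases and calmodulin-like proteins 14 rose and 1, *CPK29*, fell. *CML4* rose by 2.62 and *CPK12* by 1.89. *MPK5*, a MAP kinase of defense and stress responses, had 660, 871 and 536 in the DEX arrays, against 57.8, 63.2 and 61.8 in the mock arrays, and of 11 MAP kinase genes 6 rose and 2 fell. Of 33 PP2C phosphatase genes 13 rose and 5 fell. *OsPP2C41* had 1657, 1835 and 1804 in the DEX arrays, against 303, 331 and 323 in the mock arrays. *OsPP2C06*, also named *ABIL1*, fell by 1.37. For the CIPK kinases and the CBL proteins that bind them the count depended on scaling. As deposited 6 rose and 8 fell of 24, and with centring on the upper quartile 12 rose and 5 fell. *CIPK23*, known for activating potassium and nitrate transport, rose in every setting (178, 228 and 223 in the DEX arrays, against 29.8, 35.1 and 31.9 in the mock arrays).

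Redox genes held both large rises and clear falls. Among 28 thioredoxin and glutaredoxin genes 13 rose and 8 fell, and 4 fell with centring on the upper quartile or quantile normalization. The nucleoredoxin genes *OsNrx1-1* and *OsNrx1-2* rose by 4.40 and 3.41. *OsNrx1-2* had 1156, 757 and 1210 in the DEX arrays, against 91.9, 89.1 and 107.6 in the mock arrays. The falls included *TRXM*, a thioredoxin of plastids (-1.19 on the log2 scale), and *GRXC7* (-1.63). Of 5 glutathione S-transferase genes 3 rose and none fell. Of 7 autophagy genes 5 rose, led by *ATG8A*, whose protein coats the forming autophagosome (727, 725 and 781 in the DEX arrays, against 310.2, 303 and 261 in the mock arrays).

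Sugar and nutrient genes went both ways within each family. *SWEET15*, an exporter of sucrose, had 445, 399 and 464 in the DEX arrays, against 41.3, 27.0 and 29.1 in the mock arrays. Of 15 sugar transporter genes 5 rose and 4 fell. *CIN1*, a cell wall invertase that splits imported sucrose, rose by 2.74 (standard error 0.18, adjusted p = 3.22e-07). *SUS1*, a sucrose synthase, fell by 1.95 and had 339, 284 and 299 in the DEX arrays, against 1183, 1191 and 1179 in the mock arrays. *TPP1*, a trehalose-phosphate phosphatase, rose by 3.36. Of 48 metal transport genes 17 rose and 11 fell, and 6 fell with centring on the upper quartile. *YSL12*, of the family that carries metals bound to chelators, and *HMA2*, a zinc and cadmium pump, rose by 2.57 and 2.53. *NRAMP5*, the manganese uptake transporter of rice roots, fell (60.7, 62.5 and 60.2 in the DEX arrays, against 350.4, 416 and 309 in the mock arrays). *GLN2*, the glutamine synthetase of chloroplasts, fell by 1.42 and the ammonium transporter *AMT2-3* rose by 2.58.

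The 2 largest falls among genes with a printable name were of light-harvesting genes. *CAB2R*, encoding a chlorophyll a/b-binding protein of the light-harvesting antenna, had 40.6, 48.9 and 25.3 in the DEX arrays, against 653, 597 and 595 in the mock arrays. *RCABP69*, of the same family, had 158, 89.0 and 133.6 in the DEX arrays, against 1785, 1878 and 1943 in the mock arrays. The third member, *CAB1R*, was dim in both groups and also fell (8.05, 6.57 and 12.5 against 36.6, 29.3 and 33.8). The log2 fold changes were -4.06, -3.92 and -1.92. Near-identical copies of these genes could share signal on the array. In bulk tissue, fewer cells that express a gene and less RNA per cell cannot be told apart, and this holds for every fall and rise given here.

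The fall reached the photosystems and the synthesis of chlorophyll. Of 9 genes of the photosystems and electron transport 7 fell and none rose, with a median of -1.42 on the log2 scale. *OEE3*, a protein of the oxygen-evolving complex, had 95.3, 93.0 and 89.3 in the DEX arrays, against 564, 516 and 528 in the mock arrays. *HCF101*, which builds the iron-sulfur clusters of photosystem I, and *PSAH*, a subunit of it, fell (-2.66 and -2.22). *LFNR1*, the leaf form of ferredoxin-NADP reductase, fell by 2.25 (25.3, 22.1 and 21.1 in the DEX arrays, against 99.7, 123 and 103.7 in the mock arrays). The other gene named *FNR* did not pass (-0.17, adjusted p = 0.166), nor did *atpI* (5399, 5269 and 5667 in the DEX arrays, against 5641, 5807 and 6060 in the mock arrays).

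Of 10 chlorophyll synthesis genes 9 fell and none rose, with a median of -1.47. The 3 subunits of magnesium chelatase, which puts magnesium into the ring, all fell, *CHLI* the most (-2.22), then *CHLD* (-1.67) and *CHLH* (-1.39). *CHLI* had 52.7, 63.8 and 51.3 in the DEX arrays, against 259, 250.2 and 269.6 in the mock arrays. *PORB*, the light-dependent reductase, had 63.1, 40.3 and 97.3 in the DEX arrays, against 296, 256 and 250.3 in the mock arrays. The exception was *GSA*, an aminotransferase at the start of the pathway (-0.19, adjusted p = 0.182). Among regulators, *GLK2*, a transcription factor of chloroplast development, fell by 1.03. Other chloroplast proteins among the 15 largest falls were *EGY2*, a membrane metalloprotease (84.1, 50.6 and 77.3 in the DEX arrays, against 457, 461 and 459 in the mock arrays), and *PNP1*, a polynucleotide phosphorylase of plastid RNA (67.9, 56.1 and 58.2 against 351, 349.7 and 352).

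Most genes of DNA replication and most kinesin genes fell, while other cell division lists were less uniform. Of 19 DNA replication genes 18 fell and none rose, with a median of -1.43. *MCM3*, of the replicative helicase, had 404, 351 and 388 in the DEX arrays, against 1095, 1087 and 1104 in the mock arrays. Of 8 A- and B-type cyclin genes 6 fell, and of 7 D-type cyclin genes 4 fell; none rose in either group. The larger falls were of cyclins of entry into and passage through DNA synthesis. *CYCD2-2* had 194, 102 and 144 in the DEX arrays, against 705, 783 and 759.7 in the mock arrays, and *CYCA3-1* had 79.6, 53.7 and 62.4 in the DEX arrays, against 354, 366 and 360 in the mock arrays. The mitotic cyclins *CYCB1-1* and *CYCB2* fell (-0.99 and -1.03). *OsRBR1*, the retinoblastoma-related brake on entry into DNA synthesis, fell by 1.76 (181, 152 and 178 in the DEX arrays, against 558, 608 and 561 in the mock arrays), and so did the checkpoint kinase *WEE1* (-1.72). The list of cyclin-dependent kinases, their inhibitors and checkpoint genes held 3 rises and 7 falls among 13 genes. The largest of those rises was *EL2*, an inhibitor of cyclin-dependent kinases that elicitors induce, which had 673, 703 and 775 in the DEX arrays, against 133, 96.5 and 98.4 in the mock arrays. The inhibitors *KRP1* and *KRP6* did not pass (0.02 and -0.36). Of 23 kinesin genes 20 fell and 1 rose, and of 9 tubulin and actin genes 7 fell and none rose. Of 12 formin genes, which nucleate actin filaments, 5 fell and 1 rose. The study picked out cell cycle genes from these same arrays, so these counts are not independent evidence of a direction.

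Growth machinery was lower by smaller steps. Of 11 cytosolic ribosomal protein genes 10 fell (-0.99 to -0.42 on the log2 scale). *RPL27*, the largest of these falls, had 1507, 1342 and 1543 in the DEX arrays, against 2751, 3098 and 2894 in the mock arrays. All 7 translation factor genes had negative log2 fold changes and 6 fell, and with centring on the upper quartile 3 did. These genes are bright (summed signal 9140 to 9820 in the mock arrays), and bright rows fell more often in general. Of rows with 1 gene at a log2 signal of 10 to 11 on the mock arrays of 3 h, 59.3% fell. The median log2 fold change of those rows was -0.476, against -0.41 for the translation factors. The 11 ribosomal protein genes are brighter (summed signal 29300 to 30800 in the mock arrays). Their median was -0.59, against -0.377 for rows with 1 gene at a log2 signal of 11 and over, of which 59.5% fell. For proteasome and ubiquitin genes the count depended on scaling. As deposited 4 of 20 rose and 4 fell, with centring on the upper quartile 9 rose and 3 fell, and after quantile normalization 7 rose and 3 fell. Of 26 genes of chromatin and DNA methylation 16 fell and 2 rose, and with centring on the upper quartile 13 fell and 4 rose. *MET1B*, the DNA methyltransferase that copies methylation after replication, had 87.4, 59.1 and 101.1 in the DEX arrays, against 335, 329 and 348 in the mock arrays. The arginine methyltransferase genes *PRMT10*, *PRMT3*, *PRMT1* and *PRMT7* fell (-1.81, -1.74, -1.16 and -0.71). The 2 that rose as deposited were *HDA703*, a histone deacetylase, by 1.22 and *EZ1*, a Polycomb methyltransferase, by 1.13. Among 21 genes of small RNA pathways 12 fell, among them *AGO4B* of RNA-directed DNA methylation (-0.92). With centring on the upper quartile 8 fell in place of 12, and 5 rose in place of 3. The 3 that rose as deposited included *AGO18* and *DCL2A*, both known from antiviral defense. *DCL2A* had 1040, 1029 and 960 in the DEX arrays, against 287, 325 and 330 in the mock arrays.

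**Figure D4:**
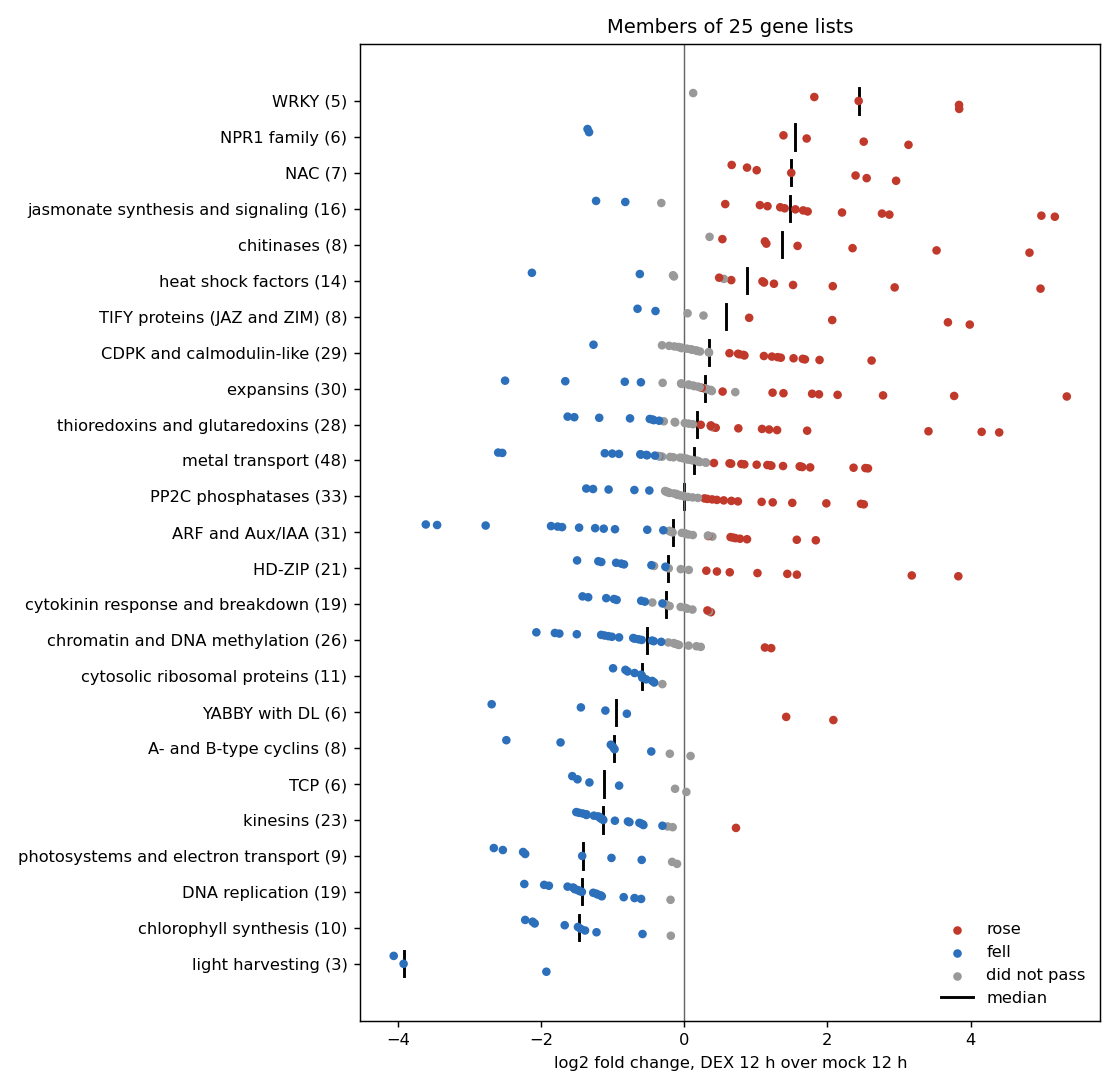
Log2 fold change (DEX over mock, 12 h) of each member of 25 gene lists, ordered by their median (black bar), with the number of members in parentheses; red members rose, blue fell and grey did not pass. Light harvesting, chlorophyll synthesis and DNA replication lie at the low end, and *WRKY*, *NPR1* and *NAC* genes at the high end. Expansins, Aux/IAA and YABBY genes reach far to both sides. The lists drawn are a selection from 73. Several lists with a median near 0 are not drawn, among them *MADS* (0.01) and proteasome and ubiquitin genes (0.02).

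Auxin genes went both ways, and 3 of the 15 largest named falls were *ARF* or *Aux/IAA* genes. Of 31 *ARF* and *Aux/IAA* genes, which encode transcription factors of the auxin response and their repressors, 12 fell and 8 rose. *ARF5* had 59.9, 34.1 and 55.5 in the DEX arrays, against 529, 685 and 568 in the mock arrays. *IAA10* had 102, 72.0 and 66.9 in the DEX arrays, against 858, 882 and 849 in the mock arrays. These were drops of over 10-fold in genes that were bright in mock apices. *IAA17* had the largest loss of absolute signal of all genes with a printable name and arrays apart, at 1137, 1018 and 1155 in the DEX arrays, against 3713, 4214 and 3376 in the mock arrays. *IAA18*, in contrast, had 570, 495 and 551 in the DEX arrays, against 123, 170 and 163 in the mock arrays. In the second auxin list, of GH3, SAUR, PIN and other genes, 8 of 19 rose and 4 fell. The GH3 genes of this list gave 4 rises and 2 falls, *GH3.5* and *GH3.11*. *GH3.5* is the gene given above for jasmonate and is counted in both lists. The largest rise was *GH3-8* (874, 934 and 742 in the DEX arrays, against 84.5, 104.9 and 88.0 in the mock arrays). *OSPIN10a*, an auxin exporter, rose by 1.98.

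Cytokinin genes were called in both directions. Of 19 genes of cytokinin response and breakdown 8 fell and 2 rose, where 32.4% and 22.8% of all genes did. Among type-A response regulators, which cytokinin induces, *RR2*, *RR1* and *RR4* fell (-1.42, -1.34 and -1.09). *RR2* had 104.8, 101 and 86.2 in the DEX arrays, against 262, 256 and 259.5 in the mock arrays. Of the 6 LOG enzymes, which release active cytokinin, 2 fell and 2 rose. *LOGL3* had 59.0, 42.8 and 41.2 in the DEX arrays, against 249, 223.5 and 213 in the mock arrays, and *LOGL10* had 24.8, 28.7 and 26.6 in the DEX arrays, against 87.0, 87.2 and 96.5 in the mock arrays. *LOG* rose by 0.49 on the log2 scale, and *LOGL7* was at 667, 790 and 834 in the DEX arrays, against 329, 336 and 341 in the mock arrays.

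For other growth hormones, single steps of synthesis stood out. *GA20OX3*, an oxidase of gibberellin synthesis, fell by 1.55, and *SLRL1*, of the DELLA-like repressors of gibberellin response, rose by 1.54. In the brassinosteroid group 4 of 19 genes rose and 9 fell. The rises were led by *DWARF4* and *D11*, cytochrome P450 enzymes of its synthesis. *D11* had 427, 393 and 573 in the DEX arrays, against 84.5, 69.8 and 76.4 in the mock arrays. The falls included *GSK2*, a kinase that blocks brassinosteroid signaling (-1.65), and *OsBU1*, a helix-loop-helix protein that promotes leaf bending (-1.798). *ACS1* and *ACO1*, for the last 2 steps of ethylene synthesis, both rose (*ACO1* had a log2 fold change of 1.299).

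Regulators of leaf and meristem form split within families. The YABBY genes are expressed in lateral organs, and *DL* among them directs midrib formation. *YAB1* fell to 31.3, 35.1 and 36.5 in the DEX arrays, against 214, 245 and 205 in the mock arrays. *DL*, *YAB2* and *YAB3* fell (-1.44, -1.10 and -0.80). *YAB4* and *YAB5* rose, with 777, 920 and 880 in the DEX arrays, against 201, 202 and 203 in the mock arrays for *YAB4*, and 1770, 1883 and 1797 in the DEX arrays, against 672, 684 and 674 in the mock arrays for *YAB5*. Every member was called, 2 up and 4 down, and the directions held under the 3 other scalings. Of 21 *HD-ZIP* genes 8 rose and 8 fell. The falls included 4 of class III, which mark the upper side of leaves and the vasculature: *Hox9*, *HOX33*, *hox32* and *HOX10* (-1.496, -1.16, -0.95 and -0.84). The rises were led by *Hox13* and by *Roc4*, an epidermal class IV gene, at 3.83 and 3.18. *Hox13* had 1001, 1058 and 1130 in the DEX arrays, against 73.3, 78.8 and 72.4 in the mock arrays.

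The KNOX genes *OSH1*, *OSH71* and *OSH15*, which keep meristem cells undifferentiated, fell (-0.71, -0.74 and -0.93). *OSH1* had 72.0, 62.6 and 69.0 in the DEX arrays, against 122, 128 and 87.1 in the mock arrays. *HOS59* and *HOS66* of the same homeobox list rose by 1.37 and 0.97 (log2); for the list of 7 KNOX and BELL genes the count was 2 up and 3 down as deposited, and 4 up and 3 down with centring on the upper quartile. Of 6 *TCP* genes 4 fell, led by *PCF5* at 98.4, 79.7 and 90.2 in the DEX arrays, against 255, 283 and 253 in the mock arrays. *GRF1*, a growth-regulating factor, fell by 1.22. *ER2*, a receptor kinase of the ERECTA family that promotes organ growth, had 269, 140.0 and 166 in the DEX arrays, against 1249, 1381 and 1345 in the mock arrays. *PRR37* of the circadian clock fell by 1.57, while *GI* had -0.04 (adjusted p = 0.789). The *OsWOX4* row itself had 364, 389 and 432 in the DEX arrays, against 133.6, 149 and 125.5 in the mock arrays. It may read the RNAi transcript, so it checks nothing about the labels.

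Cell wall genes were mixed. Of 30 expansin genes, whose proteins loosen walls, 10 rose and 4 fell, and with centring on the upper quartile 17 rose and 3 fell. *EXPB6* had 683, 822 and 803 in the DEX arrays, against 24.4, 15.5 and 17.9 in the mock arrays. *EXPB3* was brighter and less even, at 2612, 2958 and 2822 in the DEX arrays, against 578, 485 and 241 in the mock arrays. *EXPA6* and *EXPA21* fell (-2.502 and -1.66). *GLU8*, an endoglucanase, had 572, 675 and 588 in the DEX arrays, against 65.5, 62.0 and 60.3 in the mock arrays. Of the cellulose synthase family 5 genes fell, all of the *CSLA* group that makes mannans. *CSLA1* had 416, 457 and 482 in the DEX arrays, against 2226, 2245 and 1989 in the mock arrays, and *CSLA5*, *CSLA4*, *CSLA7* and *CSLA9* fell (-1.29, -0.96, -0.70 and -0.56). As deposited 3 rose, and 5 with centring on the upper quartile or quantile normalization. *CESA6*, of primary wall cellulose, rose by 0.90, while *CESA4* and *CESA9* of secondary walls did not pass (-0.07 and 0.24). Of 10 laccase genes 4 rose and none fell.

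Some of the genes that rose together lie side by side. In 7737 pairs of neighbouring genes on the reference assembly that were both measured, 9.90% of the members rose at least 2-fold at an adjusted p under 0.05, and 17.6% of those that did had a partner in the pair that did so too. For falls the shares were 11.7% and 14.2%. Named neighbours that both rose were *EXPB6*, *EXPB2* and *EXPB3*, the run of *OsOPR5*, *OPR4*, *OPR3* and *OsOPR1*, *Cht-3* and *Cht-1*, *WRKY76* and *WRKY62*, and *YSL13* and *YSL12*. All of these are copies within a family, and copies that are near-identical can share signal on an array, so the value of a single copy is uncertain. Named neighbours of different families that rose were *NH1* and *GRXS2*, *OSPIN10a* and *HOX3*, *CPK20* and *PGIP-1*, *BGLU1 (LOC4324050)* and *RH3*, *AOS2* and *NSHB2*, and *HSFB2C* and *UGE-3*. Named neighbours that both fell were *IAA24* and *MET1B*, *CSLA1* and *PRXIIE-2*, *PSY1* and *AGO1D*, and *HSP17.7* and *FBPase*.

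Markers of the tissue and of others were checked. All 3 mature leaf markers are the light-harvesting genes, and their summed signal was 144 to 207 in the DEX arrays and 2480 to 2570 in the mock arrays. Of 14 shoot apex markers 10 fell and 4 rose. The sum was 3920 to 4240 in the DEX arrays and 2640 to 2940 in the mock arrays, and *YAB5* was the brightest. The rises included *YAB4*, which averaged 859 in the DEX arrays and 202 in the mock arrays. *OsWOX4* is among the markers as well (395 and 136), and its row may read the RNAi transcript. The higher sum thus stands beside falls in most members. The dimmest apex marker, *FON1*, averaged 27.7 in the DEX arrays and 40.2 in the mock arrays. Of 4 root markers, *SHR1* and *SCARECROW* fell, *Lsi2* did not pass, and *QHB*, which marks the quiescent center of the root, rose (303, 196 and 308 in the DEX arrays, against 22.1, 16.6 and 14.6 in the mock arrays). The summed root signal was 292 to 402 in the DEX arrays and 184 to 202 in the mock arrays. Of 6 seed markers 1 rose and 1 fell, at 0.36 (*AMY1.3*; adjusted p = 0.0533 without DEX replicate 1 and 0.0516 without mock replicate 1) and -0.39 (*GLUB-5*; adjusted p = 0.111 with centring on the upper quartile), and of 3 anther markers 1, *MSP1*, rose. Of 5 vascular markers 2 fell, with sums of 1100 to 1490 in the DEX arrays and 1820 to 2220 in the mock arrays. The part of other cell types in the results was not tested. Of 14 genes in constant use 4 rose and 5 fell, between -0.82 and 0.86 on the log2 scale, and with centring on the upper quartile 5 rose and 4 fell.

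Many of the strongest changes were in genes that carry only a locus symbol. Of the 100 largest rises 16 have a printable name, and of the 100 largest falls 23. The largest rise was *LOC4333197*, at 455, 750 and 454 in the DEX arrays, against 4.26, 4.22 and 5.88 in the mock arrays, and the largest fall was *LOC4349876*, at 21.6, 8.85 and 12.6 in the DEX arrays, against 1023, 976 and 1025 in the mock arrays. These were chosen after their values were seen, and the gene table used here lists them by locus symbol alone. Genes with a printable name rose more often than the others (29.1% against 21.9%) and fell about as often (33.0% against 32.3%).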

How the data were processed

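RNA of shoot apices was measured on 1-color Affymetrix rice gene arrays, 3 per group in 4 groups. Per the labels, Affymetrix Expression Console 1.3 was used by the authors for normalization; the deposited values were read as log2 from their range. Arrays have no depth, and their number limits the precision. The probe table gave 1 gene for 15829 rows, several for 440 and no gene for 38653; all 15140 genes were matched to a reference table (ASM3414082v1), used for names and gene order only. The 4 group means were fitted over 12 arrays in limma 3.58.1 (R 4.3.3), with p-values adjusted by Benjamini-Hochberg over all 54922 rows. The brightest row stands for a gene that has more than 1. Members of 73 lists were taken by symbol, and members and lists were chosen with earlier results of these data known. Genes were named if among the 15 largest rises or falls, or the 5 largest signal differences each way, with arrays apart, if the largest call of a list, or if named by the study; other list members given were chosen after their values were seen. Alternatives were 3 scalings, 2 dim filters, 12 h arrays only, a variance trend, no moderation, row sets, a replicate block, each array left out, and other limits. The fit was checked on simulated data. Python 3.11.15, NumPy 2.4.6, pandas 2.3.3 and matplotlib 3.10.9 were used.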

Additional observations from a re-analysis of the deposited data

How the results depend on the processing

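Of the 143 genes named by the rules above, none changed direction under 18 alternatives. Among them 9 lost their call in at least 1 alternative, 37 values of 2540. These were *PIP2-3*, *ELF1*, *AMY1.3*, *ACT1*, *GLUB-5*, *OC-VI*, *CAD8B*, *MPK2* and *SWEET13*. *OC-VI* lost it in 10 alternatives, for example under median centring (adjusted p = 0.0790). The other list members given in the text are not part of this count. *TIFY2A*, for example, lost its call with centring on the upper quartile.

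Over all rows, 2840 were higher and 5362 lower by fold and p, and 8203 rose and 15390 fell by the adjusted p. Centring on the upper quartile gave 14458 rows that rose and 3485 that were lower by fold and p. With rows dimmer than the median left out, 1724 rows were higher by fold and p, and 948 of the rows with 1 gene; fewer rows were tested there. All other counts stayed within 1.5 times.

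Leaving out 1 array of 12 h at a time gave, for rows with 1 gene, 3136 to 3346 that rose, 4521 to 4922 that fell, 1430 to 1548 higher and 1546 to 1793 lower. For all rows the ranges were 6976 to 8078, 13667 to 14991, 2770 to 2959 and 4666 to 5993.

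Arrays with the same replicate number did not deviate together (correlations of -0.0224, -0.0193 and -0.0367 across rows), so no pairing by number showed in the values. The labels give only the number, and whether such arrays were handled together is not known. With the replicate number as a block 3475 rows with 1 gene rose and 4909 fell.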
